A study of Mus musculus with 126 samples.

Results

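The 10 genes described here encode transcription regulators that mark the naive state of mouse embryonic stem cells. They are Klf2, Klf4, Klf5, Esrrb, Tfcp2l1, Tbx3, Zfp42, Prdm14, Nr5a2 and Nr0b1. They were taken by name from a deposited table of 23420 genes, and all 10 passed the filter on low counts that left 15822 genes for testing. The series holds 126 samples, and its title concerns how DNA methylation and histone acetylation shape where transcription factors sit on the genome. The values here come from its 8 RNA-seq libraries of ribosomal RNA-depleted total RNA, and the other 118 samples were not analysed here.

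The libraries form 4 groups of 2. Wild type cells were of the J1 mouse embryonic stem cell line, and TKO cells, on the same J1 background, carry knockouts of Dnmt1, Dnmt3a and Dnmt3b, the enzymes that write and maintain DNA methylation. Each genotype was exposed for 36 h either to Trichostatin A (TSA), an inhibitor of histone deacetylases, at 5 ng/µl as labelled, or to its solvent DMSO at 0.0033%. All groups grew on gelatin in medium with serum and leukaemia inhibitory factor (LIF). The design text calls the replicates biological, and the labels do not say whether the cultures were separate, so p-values measure the spread between these libraries, which may in part be technical. How many clones the TKO cells represent is not given in the sources used here. Each group is named below by its genotype and agent.

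Naive embryonic stem cells resemble the epiblast of the early embryo before implantation, and they keep that state under a network of transcription factors that support one another's expression. LIF acts through Stat3 on Klf4 and Tfcp2l1, Wnt signalling relieves repression of Esrrb by Tcf7l1, and Klf2, Tbx3, Nr5a2 and Nr0b1 lie in the same network around Pou5f1, Sox2 and Nanog. Prdm14 is known as a repressor that, with its partner Cbfa2t2, holds down fibroblast growth factor receptors and the de novo DNA methyltransferases, and Zfp42, also called Rex1, is a widely used marker of the naive state.

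Total counts ran from 13280631 to 15542527 per library, and 3 counts corresponded to 0.183 to 0.243 normalised CPM (CPM after scaling the library totals by TMM factors), a floor that covers counting error only. The lowest count of any member in any library was 65. Replicate libraries differed by more than counting noise, with a chi-square per degree of freedom over genes of 5.28 to 12.2, so no pair looked like 1 library deposited again. In DMSO the targeted genes stood in TKO at 29.2% (Dnmt1), 12.5% (Dnmt3a) and 7.59% (Dnmt3b) of the wild type level. The embryonic stem cell markers Pou5f1, Sox2 and Nanog summed to between 881 and 1898 normalised CPM in every library. The 6 primitive endoderm markers summed to 7.20 and 9.40 in wild type cells given DMSO, 16.2 and 19.4 in those given TSA, 29.7 and 30.4 in TKO cells given DMSO, and 38.1 and 46.8 in TKO cells given TSA, and none of them was at 0 in any library. The 5 trophoblast markers summed to 14.8 and 9.80 in wild type cells given DMSO, 5.47 and 6.33 in TKO cells given DMSO, and 51.0 to 64.2 in the TSA libraries. Elf5 alone among them was at 0, in 1 wild type DMSO library. The summed fibroblast and mesenchymal markers (6 genes, none at 0) were at 42.2 and 49.6 in wild type DMSO and 20.7 and 19.9 in TKO DMSO. With TSA they were at 82.3 and 96.9 in wild type and 45.9 and 60.8 in TKO. The 3 neural markers (none at 0) summed to 239 and 151 in wild type cells given DMSO, 84.7 and 65.0 in those given TSA, 109 and 88.4 in TKO cells given DMSO, and 74.7 and 75.9 in TKO cells given TSA. In DMSO these markers went different ways by mean level. Nes was lower in TKO than in wild type (59.6 and 174), Sox1 was higher (12.1 and 2.64), and Pax6 was not called (26.8 and 18.5). The 4 early mesoderm markers (none at 0) summed to 5.67 to 17.1. Single markers of other lists also went different ways. With TSA in TKO, Sox17 and Pdgfra were called higher, while Gata4, Gata6 and Sox7 had lower means and were not called. In DMSO, Twist1 was called higher in TKO than in wild type (10.3 and 5.40), and Col1a1, Col1a2 and Col3a1 were called lower. In the same comparison Kdr was called higher (4.33 and 2.49) and T lower (0.391 and 9.70). Several of these lists move with treatment or genotype, and their part in the results was not tested. In bulk RNA, fewer cells of a type and less RNA per cell cannot be told apart.

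Promoter sequence was available for 7 of the 10 genes (Klf2, Klf4, Esrrb, Tfcp2l1, Zfp42, Nr5a2 and Nr0b1) in a RefSeq table of 300-base promoters on build GRCm38.p6, which runs from 250 bases before a gene start to 50 after it. CpG dinucleotides, the sites that Dnmt enzymes methylate, were counted in each. The 4 upstream stretches below were chosen to show the span from CpG-rich to CpG-poor promoters among genes that all fell with TSA. Each is written 5′ to 3′ along the gene, with every CpG in capitals.
Klf4: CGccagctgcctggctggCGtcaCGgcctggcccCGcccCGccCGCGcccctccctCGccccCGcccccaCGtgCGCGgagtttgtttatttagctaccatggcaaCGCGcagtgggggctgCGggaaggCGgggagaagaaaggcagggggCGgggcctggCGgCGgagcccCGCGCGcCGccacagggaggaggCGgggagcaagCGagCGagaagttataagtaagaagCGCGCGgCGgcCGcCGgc
Nr0b1: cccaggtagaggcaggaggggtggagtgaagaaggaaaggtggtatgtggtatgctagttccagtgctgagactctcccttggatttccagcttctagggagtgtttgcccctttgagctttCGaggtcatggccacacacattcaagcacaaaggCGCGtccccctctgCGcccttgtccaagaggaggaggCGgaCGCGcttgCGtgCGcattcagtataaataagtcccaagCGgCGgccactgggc
Zfp42: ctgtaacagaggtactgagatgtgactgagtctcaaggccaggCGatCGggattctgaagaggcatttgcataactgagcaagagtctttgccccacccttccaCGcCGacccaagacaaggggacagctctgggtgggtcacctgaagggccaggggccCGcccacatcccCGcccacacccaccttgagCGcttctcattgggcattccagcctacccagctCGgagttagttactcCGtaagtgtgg
Nr5a2: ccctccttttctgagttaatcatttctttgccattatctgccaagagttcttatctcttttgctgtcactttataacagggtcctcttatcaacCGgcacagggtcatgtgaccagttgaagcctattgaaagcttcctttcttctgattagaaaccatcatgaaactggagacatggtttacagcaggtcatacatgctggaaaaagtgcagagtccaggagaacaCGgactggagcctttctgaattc
The Klf4 stretch is chr4:55532476-55532725 on the minus strand and holds 32 CpG. The Nr0b1 stretch is chrX:86191525-86191774 on the plus strand and holds 11. The Zfp42 stretch, chr8:43307010-43307259 on the minus strand, holds 9, and the Nr5a2 stretch, chr1:136960449-136960698 on the minus strand, holds 2. All 4 end at the outermost exon start that the deposited table gives for the gene.

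Over the full 300 bases the CpG count was 40 in Klf4, 32 in Klf2, 21 in Tfcp2l1, 14 in Nr0b1, 11 in Zfp42, 7 in Esrrb and 2 in Nr5a2. Second, inner starts of Esrrb and Nr5a2 each had 7. Among the 32851 promoters in the table, which belong to 27025 genes, the median was 7 and the quartiles were 3 and 20, so Klf4 and Klf2 lay in the CpG-rich tail and Nr5a2 at the poor end. The promoters were also searched on both strands for short cores of motifs of the 5 transcription factors that the series assayed. GGGCGG, a core of the SP1 motif, occurred in Klf2, Klf4 and Zfp42 and in 35.7% of all promoters. CACGTG, the E-box bound by MAX, occurred in Klf4 and in 7.15% of all promoters. CCGGAAG (GABPA), GCGCATG (NRF1) and ANATGGC (YY1) had no match in the 7 genes, against 8.86%, 3.91% and 15.1% of all promoters. All but ANATGGC of these cores contain a CpG, none lies within another, and a match is a description of the letters only.

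**Figure D1:**
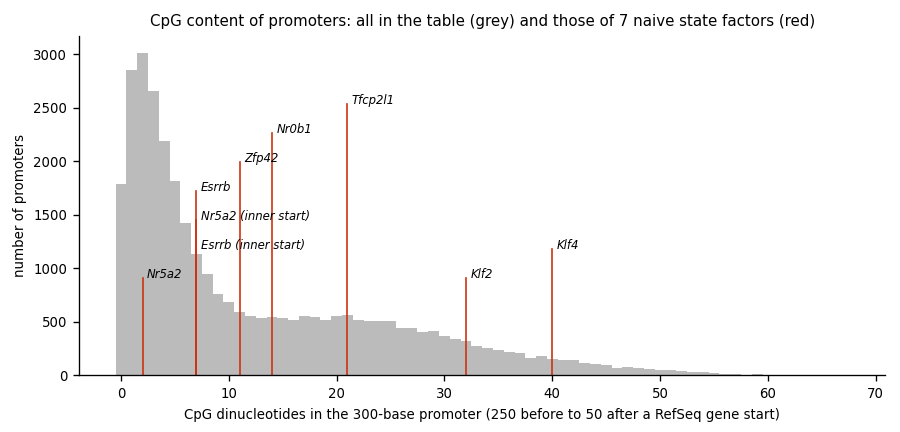
Number of CpG dinucleotides in 300-base RefSeq promoters (x axis) against the number of promoters (y axis); grey bars are all 32851 promoters and red lines mark the 9 promoters of 7 naive state factors, their height being set for legibility only. Klf4 and Klf2 stand at 40 and 32 CpG, and the outer start of Nr5a2 at 2 (its inner start at 7), against a median of 7.

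TSA lowered 9 of the 10 factors in wild type cells and the same 9 in TKO cells. Nr5a2 and Nr0b1 had the largest decreases in wild type, to 23.3% and 23.2% of their DMSO levels, and Prdm14 had the largest in TKO, to 13.4%. Klf5 was the member that did not pass the test in either genotype. Calls are at an adjusted p below 0.05 in edgeR's quasi-likelihood test with Benjamini-Hochberg adjustment over all tested genes, and fold changes below are on the log2 scale with an approximate SE. Among all tested genes 25.9% were called lower and 27.0% higher with TSA in wild type, and 27.9% lower and 30.8% higher in TKO, while no member was called higher in either, by edgeR, by DESeq2 or at an unadjusted p below 0.05 (0 members each). The members' median log2 fold change was -1.32 in wild type and -1.45 in TKO, beside all-gene medians of 0.01 and 0.04. For 2 libraries against 2, the smallest p of an exact permutation test is 0.333, so these calls rest on the spread that the model shares across genes and groups.

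**Figure D2:**
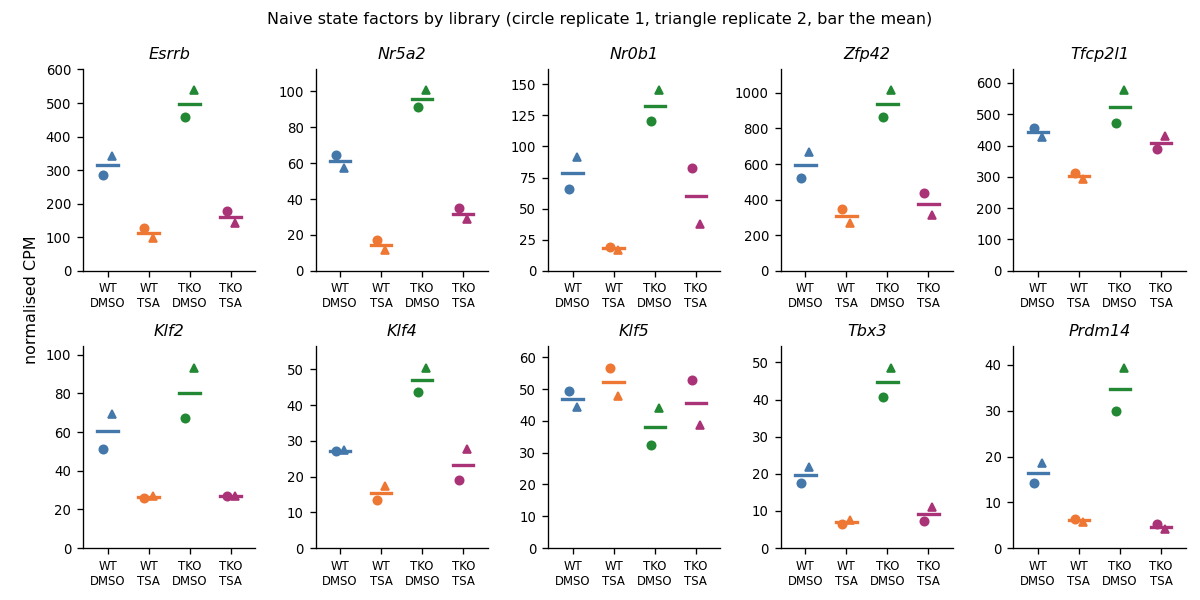
Normalised CPM (y axis, linear from 0) of the 10 factors in the 4 groups (x axis); circles are replicate 1, triangles replicate 2 and bars the mean of the 2 libraries. In 9 panels both TSA libraries of a genotype lie below both DMSO libraries of that genotype, and in the Klf5 panel they overlap.

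The orphan nuclear receptors came first by size in wild type. Nr5a2 (chr1:136843584-136960448), a receptor that can bind regulatory DNA of Pou5f1, was at 64.6 and 57.4 normalised CPM in wild type cells given DMSO, 16.9 and 11.5 in those given TSA, 91.2 and 100.6 in TKO cells given DMSO, and 34.8 and 29.0 in TKO cells given TSA. Its TSA libraries lay below its DMSO libraries in both genotypes, and its log2 fold change was -2.10 ± 0.17 in wild type and -1.59 ± 0.16 in TKO (edgeR adjusted p 1.28e-05 and 1.52e-05). This is the gene whose outer promoter holds 2 CpG and whose inner one holds 7, and which start the cells used was not tested. Nr0b1 (chrX:86191775-86195944), also called Dax1, encodes a receptor-like protein that partners other nuclear receptors, and it was at 65.7 and 91.5 in wild type cells given DMSO, 19.5 and 17.0 in those given TSA, 120 and 145 in TKO cells given DMSO, and 82.4 and 37.5 in TKO cells given TSA. The replicates in TKO TSA differed 2.20-fold, beyond the 1.37-fold that 95% of genes with a mean of at least 10 normalised CPM stayed within in that group. Klf4 and Zfp42 also passed that limit there, at 1.46-fold and 1.39-fold. In TKO DMSO, where the limit was 1.30-fold, Klf2, Klf5 and Prdm14 were at 1.39, 1.36 and 1.31. Nr5a2 was at 1.46 in wild type TSA, where the limit was 1.33. The log2 fold change of Nr0b1 was -2.10 ± 0.30 in wild type and -1.15 ± 0.28 in TKO (edgeR adjusted p 0.000246 and 0.00452). Leaving out TKO TSA replicate 1 moved the value in TKO to -1.83, and leaving out replicate 2 moved it to -0.69.

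Esrrb (chr12:86361117-86521628), a nuclear receptor that Tcf7l1 restrains, was at 285 and 343 normalised CPM in wild type cells given DMSO, 127 and 96.5 in those given TSA, 458 and 538 in TKO cells given DMSO, and 179 and 144 in TKO cells given TSA. It fell with TSA in each genotype, at -1.49 ± 0.16 and -1.62 ± 0.16 on the log2 scale (edgeR adjusted p 4.23e-05 and 1.26e-05), and the difference between these was -0.13 ± 0.22. Both TSA groups lay below both DMSO groups, and no library of one group reached those of the next.

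The Klf factors are zinc finger proteins that bind GC-rich DNA, and they did not move as one. Klf2 (chr8:72319062-72321654) was at 51.2 and 69.6 normalised CPM in wild type cells given DMSO, 25.6 and 27.0 in those given TSA, 67.0 and 93.3 in TKO cells given DMSO, and 27.1 and 26.7 in TKO cells given TSA. It fell with TSA by 1.20 ± 0.17 and 1.57 ± 0.17 on the log2 scale (edgeR adjusted p 0.000268 and 2.87e-05), to TSA levels that overlapped between the genotypes. Klf4 (chr4:55527137-55532475), a direct target of Stat3 and one of the factors used to reprogram somatic cells, was at 27.2 and 27.4 in wild type cells given DMSO, 13.3 and 17.4 in those given TSA, 43.7 and 50.5 in TKO cells given DMSO, and 18.9 and 27.7 in TKO cells given TSA. It fell by a smaller amount, -0.83 ± 0.19 in wild type and -1.01 ± 0.18 in TKO (edgeR adjusted p 0.0038 and 0.000678). Klf5 (chr14:99298691-99313409), which also acts in the trophectoderm, was at 49.5 and 44.3 in wild type cells given DMSO, 56.8 and 47.8 in those given TSA, 32.3 and 44.0 in TKO cells given DMSO, and 52.9 and 38.7 in TKO cells given TSA. Its TSA and DMSO libraries overlapped in both genotypes, and its log2 fold change was 0.16 ± 0.18 in wild type and 0.26 ± 0.18 in TKO (edgeR adjusted p 0.471 and 0.222).

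Tfcp2l1 (chr1:118627945-118685168), a target of Stat3 that can sustain self-renewal, had the smallest of the decreases that passed. It was at 457 and 427 normalised CPM in wild type cells given DMSO, 311 and 295 in those given TSA, 472 and 576 in TKO cells given DMSO, and 389 and 431 in TKO cells given TSA. Its log2 fold changes with TSA were -0.55 ± 0.11 in wild type and -0.35 ± 0.11 in TKO (edgeR adjusted p 0.00169 and 0.0147). The call in TKO was lost with scaling by total counts only, without TKO DMSO replicate 2 and without TKO TSA replicate 1.

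Tbx3 (chr5:119670669-119684601), a T-box factor that feeds into Nanog, was among the members at low levels. It was at 17.6 and 22.0 normalised CPM in wild type cells given DMSO, 6.53 and 7.68 in those given TSA, 40.8 and 48.6 in TKO cells given DMSO, and 7.30 and 11.0 in TKO cells given TSA. The decreases with TSA were -1.48 ± 0.21 in wild type and -2.28 ± 0.20 in TKO (edgeR adjusted p 0.000236 and 8.03e-06). Zfp42 (chr8:43295067-43307009), which arose from a copy of Yy1, had the highest level per kilobase of exon in all 4 groups. It was at 519 and 667 normalised CPM in wild type cells given DMSO, 350 and 270 in those given TSA, 862 and 1014 in TKO cells given DMSO, and 438 and 315 in TKO cells given TSA. It fell by 0.94 ± 0.18 in wild type and 1.32 ± 0.18 in TKO (edgeR adjusted p 0.00126 and 0.000105).

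Prdm14 (chr1:13113428-13127163) had the largest ratio between its highest and lowest group mean, with Nr0b1 close behind. Prdm14 was at 14.1 and 18.6 normalised CPM in wild type cells given DMSO, 6.41 and 5.64 in those given TSA, 30.0 and 39.4 in TKO cells given DMSO, and 5.21 and 4.08 in TKO cells given TSA. It was therefore highest in TKO DMSO and lowest in TKO TSA, and no library of one group reached those of the next. With TSA it fell by 1.44 ± 0.21 on the log2 scale in wild type, 2.71-fold, and by 2.90 ± 0.21 in TKO, 7.48-fold (edgeR adjusted p 0.000281 and 3.09e-06). In absolute size, rises and falls counted alike, the change in TKO was at or above that of 95.3% of all tested genes.

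Between the genotypes the difference went the other way. With the number of TKO clones not given, loss of the 3 methyltransferases and other differences between the lines cannot be told apart. In DMSO, 6 of the 10 factors were higher in TKO than in wild type (Tbx3, Prdm14, Klf4, Esrrb, Zfp42 and Nr5a2), where 9.62% of all tested genes were called higher and 10.7% lower. No member was called lower, by edgeR or DESeq2 or at an unadjusted p below 0.05. Tbx3 was 2.26-fold and Prdm14 2.12-fold higher, or 1.18 ± 0.19 and 1.09 ± 0.19 on the log2 scale (edgeR adjusted p 0.00166 and 0.00264). Klf4, Esrrb, Zfp42 and Nr5a2 were higher by 0.79 ± 0.18, 0.66 ± 0.15, 0.66 ± 0.18 and 0.65 ± 0.15 on that scale (edgeR adjusted p 0.0108, 0.0106, 0.0215 and 0.0119). All 6 had both TKO libraries above both wild type libraries. The others were at 0.76 ± 0.28 for Nr0b1, 0.41 ± 0.17 for Klf2, 0.24 ± 0.11 for Tfcp2l1 and -0.30 ± 0.18 for Klf5 (edgeR adjusted p 0.0770, 0.110, 0.136 and 0.267). The members' median was 0.66 and that of all tested genes -0.01. The count fell to 3 without wild type DMSO replicate 1 and to 2, Tbx3 and Prdm14, without TKO DMSO replicate 2. Klf2 also passed without wild type DMSO replicate 2 or TKO DMSO replicate 1. Nr0b1 also passed without either TKO TSA library, with no filter on low counts and in the fit on only the libraries compared.

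Under TSA, 5 factors were higher in TKO than in wild type, and no member was called lower, by either tool or at an unadjusted p below 0.05. They were Nr0b1, Nr5a2, Klf4, Esrrb and Tfcp2l1, and among all tested genes 10.0% were called higher and 8.38% lower. Nr0b1 stood at 60.0 ± 31.8 normalised CPM in TKO TSA against 18.3 ± 1.71 in wild type TSA (SD, n = 2), a log2 fold change of 1.71 ± 0.30 (edgeR adjusted p 0.00332) that was 1.04 without TKO TSA replicate 1 and 2.17 without replicate 2, and both TKO libraries lay above both wild type ones in spite of the gap between them. Nr5a2 was 2.23-fold higher, at 1.16 ± 0.17 (edgeR adjusted p 0.00119). Klf4, Esrrb and Tfcp2l1 were higher by 0.61 ± 0.19, 0.53 ± 0.15 and 0.44 ± 0.11 (edgeR adjusted p 0.0465, 0.0346 and 0.0177). The Klf4 call was lost with total-count and upper quartile scaling and in the fit on only the libraries compared. The Esrrb call was lost with upper quartile scaling. Leaving out 1 library gave 0.31 to 0.85 for Klf4, 0.35 to 0.74 for Esrrb and 0.36 to 0.51 for Tfcp2l1. Tbx3 and Prdm14, which were highest above wild type in DMSO, were at 0.38 ± 0.22 and -0.38 ± 0.23 under TSA (edgeR adjusted p 0.264 and 0.284). Zfp42, Klf2 and Klf5 were at 0.28, 0.03 and -0.19 (edgeR adjusted p 0.296, 0.926 and 0.478). The members' median was 0.41, beside 0.00 over all tested genes. The count was 3 with upper quartile scaling, without either wild type TSA library and without TKO TSA replicate 2; Nr5a2 and Nr0b1 were called in all the alternatives run.

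TKO cells with TSA were compared with wild type cells in DMSO to show both changes together. Of the 10 factors 6 were lower and none was called higher (0 by DESeq2 and at an unadjusted p below 0.05), where 30.2% of all tested genes were called lower and 31.7% higher. Prdm14 fell the most, to 28.4% of its wild type DMSO level, with a log2 fold change of -1.82 ± 0.22 (edgeR adjusted p 3.93e-05). Klf2, Tbx3, Esrrb, Nr5a2 and Zfp42 fell by 1.17 ± 0.17, 1.10 ± 0.21, 0.96 ± 0.15, 0.94 ± 0.16 and 0.66 ± 0.18 (edgeR adjusted p 0.000177, 0.000793, 0.000279, 0.0004 and 0.00713). Klf4, Tfcp2l1, Nr0b1 and Klf5 had libraries that overlapped between these groups and log2 fold changes of -0.22, -0.11, -0.39 and -0.04. For Nr0b1 the value turned on the TKO TSA replicates: it was -1.07 without replicate 1 and passed the test, and 0.07 without replicate 2. Klf4 was at 0.02 without replicate 1, and at -0.53 without replicate 2, where it passed the test. Zfp42 was not called without wild type DMSO replicate 2 or without TKO TSA replicate 2. The members' median was -0.80 and that of all tested genes 0.00.

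**Figure D3:**
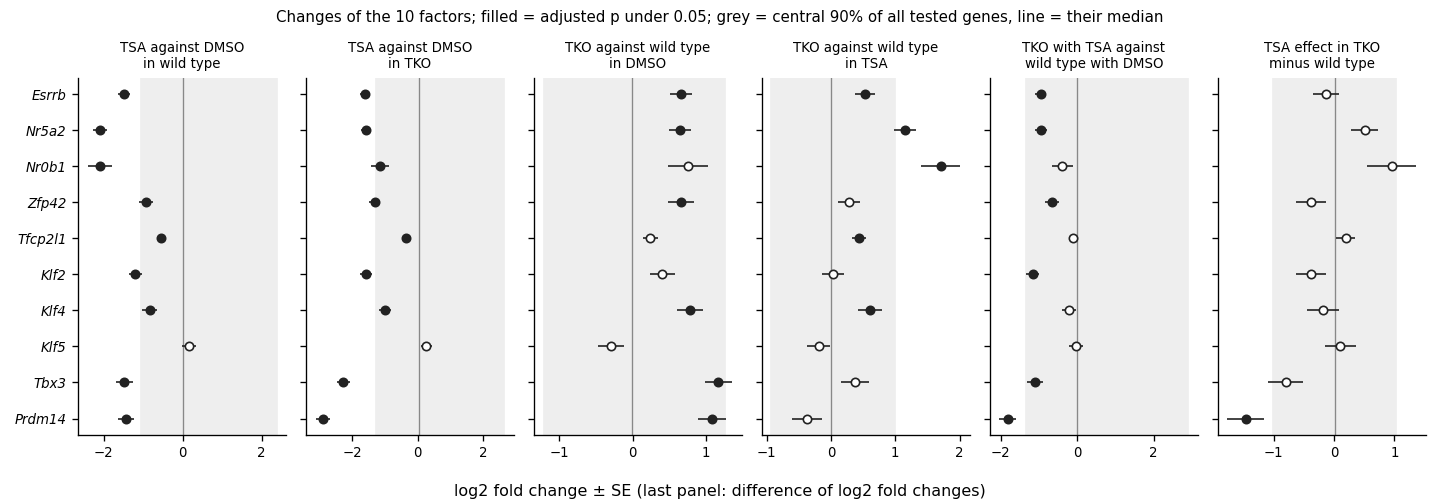
Log2 fold change with its approximate SE (x axis) of the 10 factors (y axis) in 5 comparisons, and in the last panel the effect of TSA in TKO cells less that in wild type cells; filled points passed an adjusted p below 0.05, grey bands hold the central 90% of all tested genes and vertical lines their median. The TSA panels have 9 filled points each, all to the left, and the last panel has 1, Prdm14 at -1.47.

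Whether the response to TSA differed between the genotypes was tested with an interaction term, the log2 change with TSA in TKO cells less that in wild type cells. Prdm14 was the 1 member that passed, with a difference of -1.47 ± 0.30 on the log2 scale (edgeR adjusted p 0.0445), where 0.468% of all tested genes were called lower and 0.879% higher. The call was lost in 6 of the 8 fits that left out 1 library: those without wild type DMSO replicate 1, either wild type TSA library, either TKO DMSO library or TKO TSA replicate 2. The difference stayed between -1.68 and -1.26 over all alternatives, with adjusted p from 0.00382 to 0.188. Tbx3 had -0.80 ± 0.29 and Nr0b1 0.95 ± 0.41 (edgeR adjusted p 0.228 and 0.313), and the difference for Nr0b1 was 1.42 without TKO TSA replicate 2, which passed the test. The other 7 members had differences between -0.38 and 0.51. The members' median difference was -0.16, beside 0.01 for all tested genes.

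Across the 4 groups, 8 of the 10 factors had the same order of mean levels, with TKO DMSO highest, then wild type DMSO, then TKO TSA, then wild type TSA. Of these 8, only Esrrb and Nr5a2 had libraries that lay apart at every step. The TSA groups overlapped in Klf2, Tbx3 and Zfp42, and the DMSO groups in Klf2. Wild type DMSO and TKO TSA overlapped in Klf4, Tfcp2l1 and Nr0b1. Prdm14 had the last places of that order exchanged, and the libraries of its TSA groups did not overlap though the difference did not pass the test. Klf5 ran from wild type TSA at the top through wild type DMSO and TKO TSA to TKO DMSO, and of its neighbours in that order none differed beyond the spread of their libraries. The TSA effect in wild type and the TKO effect in DMSO share the wild type DMSO libraries, and other pairs of comparisons share libraries in the same way, so their values stand side by side here as separate descriptions. Pearson correlations of log2 normalised CPM over the 8 libraries ran from 0.74 to 0.99, with a median of 0.91, for the 36 pairs of members without Klf5, and from -0.75 to -0.44 for the 9 pairs with Klf5. Those points share libraries and the treatment step, and the correlations are descriptions only.

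Per kilobase of deposited exon length, the scale on which levels of different genes can be compared, Zfp42 led in wild type DMSO at 329 ± 58.2 normalised CPM per kilobase (SD, n = 2). Esrrb followed at 68.0 ± 8.88, then Tfcp2l1 at 47.7 ± 2.23, Nr0b1 at 43.8 ± 10.2, Klf2 at 33.3 ± 7.15 and Klf5 at 27.2 ± 2.13. Tfcp2l1 and Nr0b1, Nr0b1 and Klf2, and Klf2 and Klf5 overlapped in their libraries. Nr5a2 was at 15.8 ± 1.31, Klf4 at 8.96 ± 0.05, Prdm14 at 6.32 ± 1.23 and Tbx3 at 3.89 ± 0.60, each below the one before it in both libraries. In TKO TSA the order of level was Zfp42 at 209 ± 48.4, Tfcp2l1 at 44.2 ± 3.21, Esrrb at 35.0 ± 5.42, Nr0b1 at 33.4 ± 17.7 and Klf5 at 26.5 ± 5.83, while Tbx3 and Prdm14 stood last at 1.81 ± 0.52 and 1.79 ± 0.31. Tfcp2l1 thus took the place of Esrrb, and Tbx3 and Prdm14 were not apart.

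The summed level of the 10 factors was 1551 and 1769 normalised CPM in wild type cells given DMSO, 933 and 796 in those given TSA, 2217 and 2649 in TKO cells given DMSO, and 1235 and 1064 in TKO cells given TSA. Their make-up shifted as well. Klf5 took 3.19% and 2.51% of the sum in wild type DMSO and 6.08% and 6.01% in wild type TSA, and Tfcp2l1 29.4% and 24.2% against 33.4% and 37.0%. Nr5a2 took 4.16% and 3.25% in wild type DMSO and 1.81% and 1.45% in wild type TSA. Prdm14 took 1.35% and 1.49% of the sum in TKO cells given DMSO and 0.422% and 0.383% with TSA. These shares were not tested.

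Genes known to act with or under Prdm14 were read beside it. Its corepressor Cbfa2t2 fell with TSA in both genotypes, by 0.56 ± 0.10 and 0.47 ± 0.10, and was higher in TKO by 0.30 ± 0.10 in DMSO (edgeR adjusted p 0.00074, 0.00159 and 0.0492). Fgfr2, a fibroblast growth factor receptor, was at 28.7 and 31.0 normalised CPM in wild type cells given DMSO, 49.3 and 55.7 in those given TSA, 23.0 and 22.6 in TKO cells given DMSO, and 80.3 and 107 in TKO cells given TSA. By mean level Fgfr2 was thus lowest in the group where Prdm14 was highest and highest where Prdm14 was lowest. In DMSO the change of Fgfr2 in TKO, -0.39 ± 0.15, did not pass the test (edgeR adjusted p 0.0888). Fgfr2 rose with TSA by 0.81 ± 0.14 in wild type and 2.04 ± 0.14 in TKO (edgeR adjusted p 0.000786 and 2.55e-06), and the difference between these was 1.22 ± 0.20 (edgeR adjusted p 0.026). Fgfr1 had 0.26 ± 0.12 in wild type and rose by 0.69 ± 0.12 in TKO (edgeR adjusted p 0.0958 and 0.000711). In TKO against wild type, Fgfr1 was at -0.42 ± 0.12 in DMSO and 0.01 ± 0.12 under TSA (edgeR adjusted p 0.0366 and 0.954). Dnmt3l, the catalytically inactive partner of the de novo methyltransferases, rose with TSA by 0.70 in each genotype and was higher in TKO by 1.07 in each treatment, so its levels did not mirror those of Prdm14. In wild type Dnmt3a and Dnmt3b fell with TSA as Prdm14 did, by 0.42 ± 0.14 and 0.72 ± 0.11 (edgeR adjusted p 0.0216 and 0.000292). Both are targeted in TKO and their values there are read from altered genes. Whether Prdm14 acts on any of these genes here was not tested. Of the 6 axis genes, 2 were called higher and 3 lower with TSA in wild type, 5 higher and 1 lower with TSA in TKO, and 2 higher and 3 lower in TKO in DMSO. Dnmt3a and Dnmt3b are among the 5 and among the last 3, so those counts rest in part on the altered genes. Over all tested genes 27.0% were called higher and 25.9% lower with TSA in wild type. The shares were 30.8% and 27.9% with TSA in TKO, and 9.62% and 10.7% in TKO in DMSO.

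**Figure D4:**
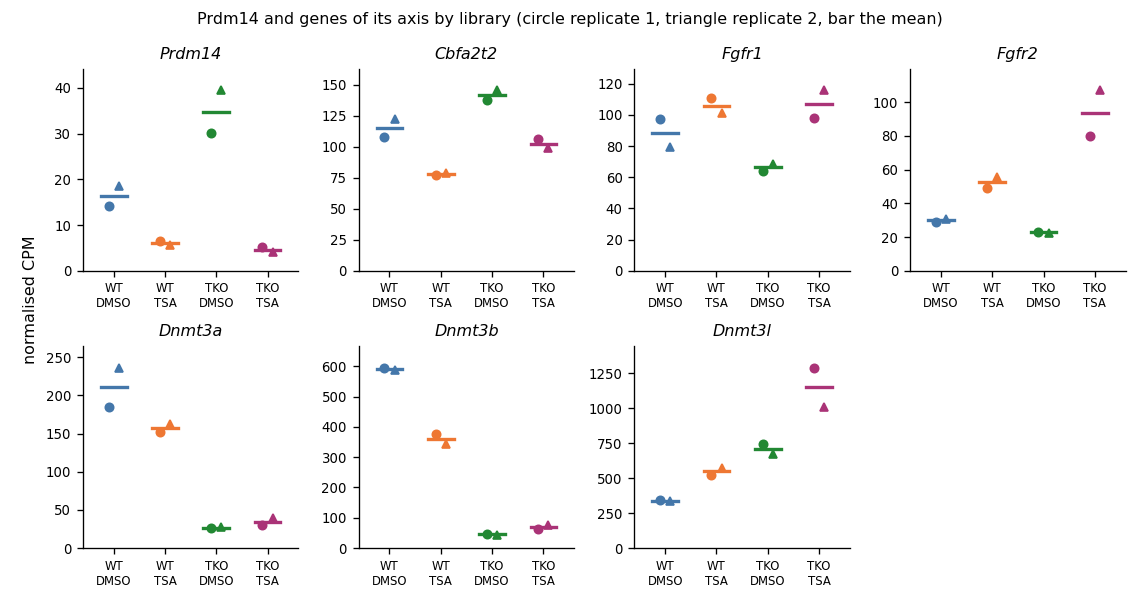
Normalised CPM (y axis, linear from 0) of Prdm14 and 6 genes of its axis in the 4 groups (x axis); circles are replicate 1, triangles replicate 2 and bars the mean of the 2 libraries. Prdm14 peaks in TKO DMSO at 30.0 and 39.4, where Fgfr2 is at its lowest, 23.0 and 22.6. The difference of Fgfr2 from wild type DMSO did not pass the test. A link between Prdm14 and Fgfr2 was not tested.

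The core factors Pou5f1, Sox2, Nanog and Sall4, the centre of the pluripotency network, had medians nearer 0 than the naive factors. With TSA in wild type 3 of the 4 were called lower, with a median of -0.45, and in TKO 2 of the 4, with a median of -0.35. Of all tested genes, 25.9% and 27.9% were called lower in these comparisons, and 9.62% were called higher in TKO in DMSO. Pou5f1 fell the most, by 1.16 ± 0.14 and 1.43 ± 0.14 (edgeR adjusted p 7.62e-05 and 1.3e-05). Nanog, by contrast, was the 1 core factor higher in TKO in DMSO, by 0.74 ± 0.12, and it stayed above wild type under TSA, by 0.89 ± 0.12 (edgeR adjusted p 0.00155 and 0.000708). Whether the naive and the core factors differ as lists was not tested.

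Other genes of the naive state followed the factors in part. Of 9 such genes, 6 were called lower and 1 higher with TSA in each genotype, with medians of -1.13 in wild type and -1.50 in TKO, and 4 were called higher and none lower in TKO in DMSO, with a median of 0.54. All tested genes gave 25.9% lower and 27.0% higher with TSA in wild type, and 27.9% and 30.8% in TKO. In TKO in DMSO they gave 10.7% lower and 9.62% higher. Jam2, a junctional adhesion molecule, was at 82.8 and 113 normalised CPM in wild type cells given DMSO, 14.1 and 13.0 in those given TSA, 215 and 237 in TKO cells given DMSO, and 17.2 and 14.7 in TKO cells given TSA. It had the largest decreases of the list, -2.85 ± 0.16 and -3.82 ± 0.16 (edgeR adjusted p 2.31e-06 and 2.02e-07). Fgf4, a ligand made by embryonic stem cells, fell by 2.75 ± 0.20 and 2.30 ± 0.19 (edgeR adjusted p 8.23e-06 and 5.59e-06), and Tdh, a threonine dehydrogenase, fell by 1.49 ± 0.17 and 2.57 ± 0.18 (edgeR adjusted p 7.45e-05 and 2.55e-06). Dppa3, also called Stella, was the gene that went up, by 1.50 ± 0.24 and 2.04 ± 0.24 (edgeR adjusted p 0.000482 and 3.88e-05).

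The signalling inputs had no common direction. Of 10 LIF and Wnt genes, 2 were called higher and 3 lower with TSA in wild type and 3 higher and 4 lower in TKO, with medians of 0.03 and -0.19, and in TKO in DMSO 3 were higher and 1 lower. Over all tested genes 27.0% were called higher and 25.9% lower with TSA in wild type, and 30.8% and 27.9% in TKO. The list's counts with TSA were near those shares. In TKO in DMSO the shares were 9.62% higher and 10.7% lower. Lifr, the LIF receptor, fell with TSA by 0.82 ± 0.10 and 0.92 ± 0.10 (edgeR adjusted p 0.000116 and 3.28e-05). Jak1, the kinase bound to that receptor, rose by 0.81 ± 0.10 and 1.03 ± 0.09 (edgeR adjusted p 7.58e-05 and 9.47e-06), with 7.49% of its exon bases shared with Raver2. Socs3, the feedback inhibitor and target of Stat3, rose by 0.60 ± 0.10 and 0.27 ± 0.10 (edgeR adjusted p 0.000569 and 0.0365), while the Stat3 targets Klf4 and Tfcp2l1 fell. Stat3 itself fell by 0.23 ± 0.09 and 0.47 ± 0.09 (edgeR adjusted p 0.0436 and 0.000891). Pim1, of the same list, was at 0.07 ± 0.12 and -0.33 ± 0.12 (edgeR adjusted p 0.643 and 0.0399). Tcf7l1, the repressor of Esrrb, fell in wild type by 0.73 ± 0.26 and was at -0.41 ± 0.25 in TKO (edgeR adjusted p 0.0336 and 0.179).

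Genes of the formative and primed states, which are on in the epiblast after implantation, were not called higher with TSA in wild type for any of 8, and 4 were called lower. In TKO 2 were called higher and 4 lower, and in TKO in DMSO none was higher and 2 were lower. Shares over all tested genes were 27.0% higher and 25.9% lower with TSA in wild type, and 30.8% and 27.9% in TKO. They were 9.62% and 10.7% in TKO in DMSO. Zic2, a zinc finger factor, was at 36.8 and 45.0 normalised CPM in wild type cells given DMSO, 2.50 and 2.78 in those given TSA, 41.9 and 43.1 in TKO cells given DMSO, and 8.39 and 7.47 in TKO cells given TSA, so its decrease with TSA was -3.95 ± 0.17 in wild type and -2.42 ± 0.15 in TKO (edgeR adjusted p 1.54e-06 and 1.59e-06). Its relative Zic5 fell by 2.67 ± 0.18 and 1.56 ± 0.17 (edgeR adjusted p 5.46e-06 and 2.26e-05). Sox3 went in opposite directions, with -1.05 ± 0.36 in wild type and 1.65 ± 0.29 in TKO, and its difference between genotypes was 2.70 ± 0.46 (edgeR adjusted p 0.0276, 0.000574 and 0.0262). Otx2 fell in both, by 0.66 ± 0.15 and 1.10 ± 0.15 (edgeR adjusted p 0.00343 and 0.000103). The epiblast marker Fgf5 was at or below 4.92 normalised CPM in every library and was called in none of the 6 comparisons.

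**Figure D5:**
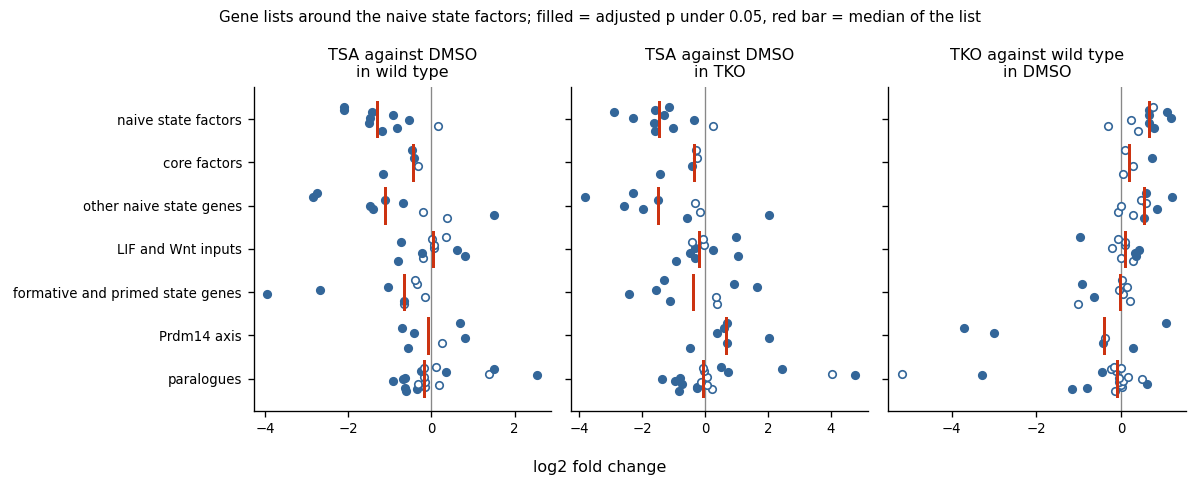
Log2 fold change (x axis) of every tested gene in 7 lists (y axis) for TSA in wild type, TSA in TKO, and TKO in DMSO; filled points passed an adjusted p below 0.05 and red bars are list medians. The naive state factors have medians of -1.32, -1.45 and 0.66, and the core factors -0.45, -0.35 and 0.18.

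Paralogues of the members gave a comparison within the same protein families. Of 19 listed, 18 were tested (Nr0b2 was not); 3 were called higher and 7 lower with TSA in wild type and 4 higher and 6 lower in TKO, with medians of -0.18 and -0.05. In TKO in DMSO 1 was called higher and 4 lower. Beside these, 27.0% of all tested genes were called higher and 25.9% lower with TSA in wild type, and 30.8% and 27.9% in TKO. For TKO in DMSO the shares were 9.62% and 10.7%. Klf13 and Klf15 had the largest decreases with TSA among the Klf paralogues, -0.91 ± 0.11 in wild type for Klf13 and -1.37 ± 0.21 in TKO for Klf15 (edgeR adjusted p 7.78e-05 and 0.000221). Tbx2, the nearest relative of Tbx3, rose with TSA by 1.51 ± 0.42 and 2.45 ± 0.40 (edgeR adjusted p 0.0116 and 0.000406) while Tbx3 fell, though it reached 2.23 normalised CPM at most. Esrrg, a relative of Esrrb, was called higher with TSA in both genotypes but reached no more than 2.51 normalised CPM. Tfcp2, the relative of Tfcp2l1, rose by 0.36 ± 0.13 and 0.74 ± 0.14 (edgeR adjusted p 0.0429 and 0.000887).

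The genes most like Prdm14 over the 8 libraries, by Pearson correlation of log2 normalised CPM among tested genes that are not members, were Ei24 (0.996), Ctsw (0.994) and Etfb (0.993). Of these Ctsw had a similar span, from 8.47 normalised CPM in TKO DMSO to 0.920 in TKO TSA, while Ei24 ran only from 142 to 88.8. For Nr0b1, whose change with TSA in wild type was the largest among members by less than its SE over Nr5a2, the closest were Myo5a (0.994), Atad2b (0.991) and Gatad1 (0.988). Each was picked as the highest among all tested genes over 8 libraries, so high values are what the choice selects.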

How the data were processed

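RNA-seq was measured in 8 libraries of mouse embryonic stem cells. The authors deposited raw read counts per gene with exon positions and lengths; TopHat2 2.0.13, featureCounts 1.4.5-p1, edgeR 3.22.3 and build mm10 are named, without roles, in the submitters' processing notes. Strand use and multi-mapping reads are not given in the sources used here; no member's exons overlap another gene. Groups came from the labels.

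Counts were tested with edgeR 4.0.16 (R 4.3.3): filterByExpr, TMM factors, 1 quasi-likelihood model with 4 group means over 8 libraries (4 residual degrees of freedom), two-sided tests, Benjamini-Hochberg adjustment over 15822 genes. SE was derived from the fold change and F. The script was tested on simulated data. Alternatives were RLE, total-count and upper quartile scaling, no filter, DESeq2 1.42.0, a replicate block, fits on only the libraries compared, and leaving out each library. The members and lists were chosen with earlier results of these data known. Named genes are the members, at most 4 called genes per list with the largest change in the comparison spoken of (TSA in wild type unless another is named), and the 3 genes most correlated with Prdm14 and Nr0b1. Fgf5, Fgfr1, Dnmt3a, Tfcp2, Stat3 and Pim1, and the single neural, primitive endoderm, mesenchymal and early mesoderm markers, were chosen after their values were seen.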

Additional observations from a re-analysis of the deposited data

Results flagged for a closer look

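Prdm14 stands here because the effect of TSA on it differed between the genotypes by the test of the difference itself: the log2 fold change with TSA in TKO less that in wild type was -1.47 (SE 0.30, edgeR's quasi-likelihood test, Benjamini-Hochberg adjusted p 0.0445). Both TKO TSA libraries were below both wild type TSA libraries, and both TKO DMSO libraries were above both wild type DMSO libraries. The call was lost in 6 of the 8 fits that left out 1 library. Groups of 2 libraries were not searched for single outlying libraries.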

How the results depend on the processing

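All 9 decreases with TSA in wild type passed the test under every alternative run, and 8 or 9 did in TKO. With total counts only, the median of all genes shifted to 0.22 for TSA in wild type and 0.19 for TSA in TKO, and with upper quartile scaling to 0.16 and 0.11. Scaling moves all genes by nearly the same amount, so relative to the median the members' changes could hardly move. They moved by -0.0064 to 0.0017, a range that lends the decreases no support. The share of called genes that were higher went from 51.0% to 70.4% and from 52.5% to 64.4% with total counts. The count for TKO in TSA, 5, was 3 with upper quartile scaling. With the replicate block the counts were 9, 9, 8, 5, 6 and 2, where TKO in DMSO gained Klf2 and Nr0b1 (adjusted p 0.0296 and 0.0490) and the interaction Tbx3 (0.0429). Deviations of same-numbered libraries correlated at 0.0673 to 0.325, all positive. With the block, calls over all genes went from 3220 to 4217 for TKO in DMSO and from 213 to 633 for the interaction. The meaning of the numbers is not in the titles, so pairing was not assumed in the main fit. Leaving out 1 library at a time gave 2 to 7 for TKO in DMSO, 3 to 5 for TKO in TSA, 5 to 7 for both changes and 0 to 1 for the interaction.

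Signs that changed belong to values that did not pass the test with all 8 libraries; for both changes, Klf4 and Nr0b1 passed at their lowest values below. For TKO in TSA, Klf2 was -0.0041 with total counts and -0.012 with upper quartile scaling. For both changes, Klf5 was 0.13 with total counts and 0.069 with upper quartile scaling, and Tfcp2l1 0.060 with total counts. Leaving out 1 library gave, for TKO in TSA, -0.0080 to 0.069 (Klf2) and -0.44 to 0.017 (Klf5); for both changes, -0.53 to 0.018 (Klf4), -0.28 to 0.17 (Klf5) and -1.07 to 0.070 (Nr0b1); and for the interaction, -0.48 to 0.066 (Klf4), -0.14 to 0.35 (Klf5) and -0.32 to 0.080 (Esrrb). The cause was not tested.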
